A study of Mus musculus with 16 samples.

Results

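A set of 10 long noncoding RNAs that have been studied by name in the heart was followed through the response of the mouse ventricle to pressure overload, with and without the cardiac lncRNA Cardinal. A long noncoding RNA (lncRNA) is a transcript that is not known to encode a protein. The 10 genes were Malat1, Neat1, Meg3, Rian, Mirg, H19, Mhrt, Tug1, Gas5 and Kcnq1ot1. They were picked by symbol from the 55487 genes of the count table, with earlier results of these data known. All 10 had enough counts to be among the 18275 genes tested.

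RNA from the apex of the heart was measured in 16 mice, which the study describes as male, with 4 mice in each of 4 groups. Ctrl animals carried the wild-type genotype, and KO animals carried a CRISPR/Cas9 deletion of Cardinal, the lncRNA annotated in mouse as Gm12295, and the labels name no tissue-restricted driver. Transverse aortic constriction (TAC), a surgical narrowing of the aorta, raises the load on the left ventricle. Sham animals, Ctrl or KO, had the same operation without ligation, and all hearts were taken 4 weeks after surgery. The ages of the animals are not given in the labels.

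These transcripts work in different ways. Malat1 and Neat1 come from neighbouring genes and stay in the nucleus, where Malat1 sits in nuclear speckles, which hold splicing factors, and Neat1 forms the core of paraspeckles. Meg3, Rian and Mirg are read from the maternal copy of the imprinted Dlk1-Dio3 locus and carry microRNAs and small nucleolar RNAs (snoRNAs) within them. H19 and Kcnq1ot1 belong to a pair of imprinted domains on another chromosome, H19 beside Igf2 and Kcnq1ot1 inside Kcnq1, where it silences neighbouring genes in cis. Mhrt runs antisense to Myh7, the gene of the slow β-myosin heavy chain, was described as a partner of the chromatin remodeller BRG1 and is known to be lost in stressed hearts. Gas5 is a host of snoRNAs known for its accumulation in growth-arrested cells, and Tug1 is a widely expressed lncRNA tied to chromatin regulators.

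In assembly GRCm38, Mhrt (ENSMUSG00000097652) lay on the plus strand at chr14:54968678-54974349. Of its 1214 annotated exon bases, 484 (39.9%) lay inside exons of Myh7 on the opposite strand. In its 828-base transcript, exons 2, 3 and 4 lay wholly inside Myh7 exons, as did the first 189 bases of exon 5. The sources used here do not say if read strand entered the counting, so reads of Mhrt and Myh7 in these bases may not have been told apart. The first 300 bases of exon 5 (chr14:54973878-54974177, plus strand, GENCODE M21) are shown with the bases that also belong to a Myh7 exon in capitals and those that belong to Mhrt alone in lower case.
Mhrt exon 5: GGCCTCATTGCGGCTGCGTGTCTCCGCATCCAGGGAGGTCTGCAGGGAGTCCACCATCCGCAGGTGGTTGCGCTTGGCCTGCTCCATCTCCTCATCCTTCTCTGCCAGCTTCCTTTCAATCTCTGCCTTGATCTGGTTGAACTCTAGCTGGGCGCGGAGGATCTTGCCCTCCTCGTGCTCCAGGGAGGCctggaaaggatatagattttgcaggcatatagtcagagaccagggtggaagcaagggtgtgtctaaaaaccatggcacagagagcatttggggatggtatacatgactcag

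The sequences around the start sites of the members that changed, or that lie beside one that changed, are shown next, so that their letters can be compared. RefSeq windows (GRCm38.p6) from 250 bases before to 50 bases after an annotated start were at hand for 8 of the 10 members, with 2 windows each for Meg3 and Gas5 and none for Neat1 and H19. Both strands of all 32851 RefSeq windows were searched for 5 motifs. TGACGTCA, the palindromic cAMP response element, was in 588 windows (1.79%), TATAAA in 4473 (13.6%), CCAAT in 12289 (37.4%), CATTCC, the MCAT element of muscle genes, in 4817 (14.7%), and CACGTG in 2349 (7.15%). Capitals mark these letters, or their reverse complement GGAATG for the MCAT element. Positions count the first base of the match from the start site.
Mhrt start, chr14:54968537-54968836, plus strand: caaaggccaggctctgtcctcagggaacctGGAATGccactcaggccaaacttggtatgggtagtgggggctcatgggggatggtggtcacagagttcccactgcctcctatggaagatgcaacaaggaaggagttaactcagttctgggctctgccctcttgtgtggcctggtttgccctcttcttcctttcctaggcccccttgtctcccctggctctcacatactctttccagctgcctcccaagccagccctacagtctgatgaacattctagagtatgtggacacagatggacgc
Gas5 start, chr1:161034916-161035215, plus strand: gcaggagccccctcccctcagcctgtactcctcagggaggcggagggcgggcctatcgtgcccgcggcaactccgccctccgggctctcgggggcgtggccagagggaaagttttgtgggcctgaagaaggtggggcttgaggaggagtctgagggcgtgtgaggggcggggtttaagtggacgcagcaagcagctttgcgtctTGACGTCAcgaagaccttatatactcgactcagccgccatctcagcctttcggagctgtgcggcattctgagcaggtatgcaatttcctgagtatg
Meg3 start, chr12:109540746-109541045, plus strand: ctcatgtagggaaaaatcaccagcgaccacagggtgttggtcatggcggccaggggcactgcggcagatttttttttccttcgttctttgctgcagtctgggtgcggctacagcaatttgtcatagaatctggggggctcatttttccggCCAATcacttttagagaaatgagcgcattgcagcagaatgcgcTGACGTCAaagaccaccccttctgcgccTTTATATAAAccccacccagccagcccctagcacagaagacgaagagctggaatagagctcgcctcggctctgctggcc
Rian start, chr12:109603695-109603994, plus strand: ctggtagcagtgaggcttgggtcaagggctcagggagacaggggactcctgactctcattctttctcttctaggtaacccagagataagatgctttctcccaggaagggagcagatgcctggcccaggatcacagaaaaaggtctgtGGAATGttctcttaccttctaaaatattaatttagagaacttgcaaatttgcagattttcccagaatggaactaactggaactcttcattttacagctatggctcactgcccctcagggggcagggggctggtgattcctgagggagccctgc

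The cAMP response element was at position -57 in this Meg3 window and at -46 in the Gas5 window. The same Meg3 window held CCAAT at -100 and TATAAA on both strands, at -29 and -25, in matches that overlap. The MCAT element was at -220 in the Mhrt window and at -103 in the Rian window, on the minus strand in both. Mirg held CCAAT at -184, and Kcnq1ot1 held it at -188, -148 and -67. No match to these letters was found in the windows of Malat1 and Tug1, the other Meg3 window or the other Gas5 window. These matches are letters in a window, and binding was not measured here.

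The libraries were made from poly(A)-selected RNA, and Malat1 in its mature form ends without a poly(A) tail. Its annotated transcript (6983 bases) holds a run of 12 A at positions 6674 to 6685, with 298 bases after it. The 60 bases around this run are shown in transcript direction (chr19:5795970-5796029, minus strand, GENCODE M21), with the run in capitals.
Malat1: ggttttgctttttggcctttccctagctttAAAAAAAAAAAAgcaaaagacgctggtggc

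Library totals ranged from 53169437 to 79404714 counts, with 24458 to 26388 genes detected, and mitochondrially encoded genes held 21.9% to 28.8% of the counts. Gm12295 checked the genotype labels: it was at 3.24 to 3.86 CPM in Ctrl sham, 2.69 to 8.02 in Ctrl TAC and 0.297 to 0.553 in KO sham, where CPM are counts relative to the scaled library total. In KO TAC it was at 0.371, 0.276 and 0.368 CPM, but at 4.55 CPM in the library labelled KO TAC 4, within the range of the Ctrl libraries. That library went against its label, and Ctrl TAC 2 also stood apart from its group in several lncRNAs, so the results on the 10 lncRNAs, and differences between KO TAC and Ctrl TAC, that rest on either are given with and without it. The cardiomyocyte markers Myh6, Tnnt2, Tnni3, Actc1, Ryr2, Myl2 and Pln were all detected and summed to 49815 to 57711 CPM in Ctrl sham, 50904 to 56012 in KO sham, 43202 to 47303 in Ctrl TAC and 37563 to 39261 in KO TAC. The 8 fibroblast markers summed to 1213 to 1389, 1264 to 1316, 1559 to 2065 and 2242 to 2475 CPM in the same order. Myh6 alone was at 22152 to 27489 CPM in Ctrl sham and 14570 to 16066 in KO TAC, a large part of the cardiomyocyte sum. In such whole-tissue RNA, fewer cells of a type, less RNA per cell and a change in single marker genes cannot be told apart in these sums. The p-values below measure the spread between these mice.

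Per kilobase of exon, the 10 lncRNAs spanned more than 3 orders of magnitude in Ctrl sham hearts. Malat1 was highest, at 123 ± 18.4 CPM per kb (mean ± SD, n = 4), above Mhrt at 73.9 ± 8.42 and Neat1 at 59.5 ± 14.1 CPM per kb. Mhrt and Neat1 overlapped, so their order is not resolved. Gas5 (6.96 ± 0.162 CPM per kb) stood above Tug1 (4.01 ± 0.277) and H19 (3.78 ± 1.24), and the latter pair overlapped. Meg3 (0.731 ± 0.0430) and Rian (0.356 ± 0.0373) followed, and Kcnq1ot1 (0.0543 ± 0.00429) and Mirg (0.0312 ± 0.0131) were lowest. Kcnq1ot1 is annotated as a single exon of 93092 bases, which lowers its value per kb. Neat1 is likewise annotated as a single exon, of 20771 bases, so its place below Malat1 depends on that length. In CPM, the mean of Neat1 in Ctrl sham (1235) was above that of Malat1 (859), with ranges that overlapped. The value of Mhrt may hold reads of Myh7, as strand use in counting is not given. Mirg was covered by only 8 to 34 counts per library, so only large changes in it were detectable at this depth.

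**Figure D1:**
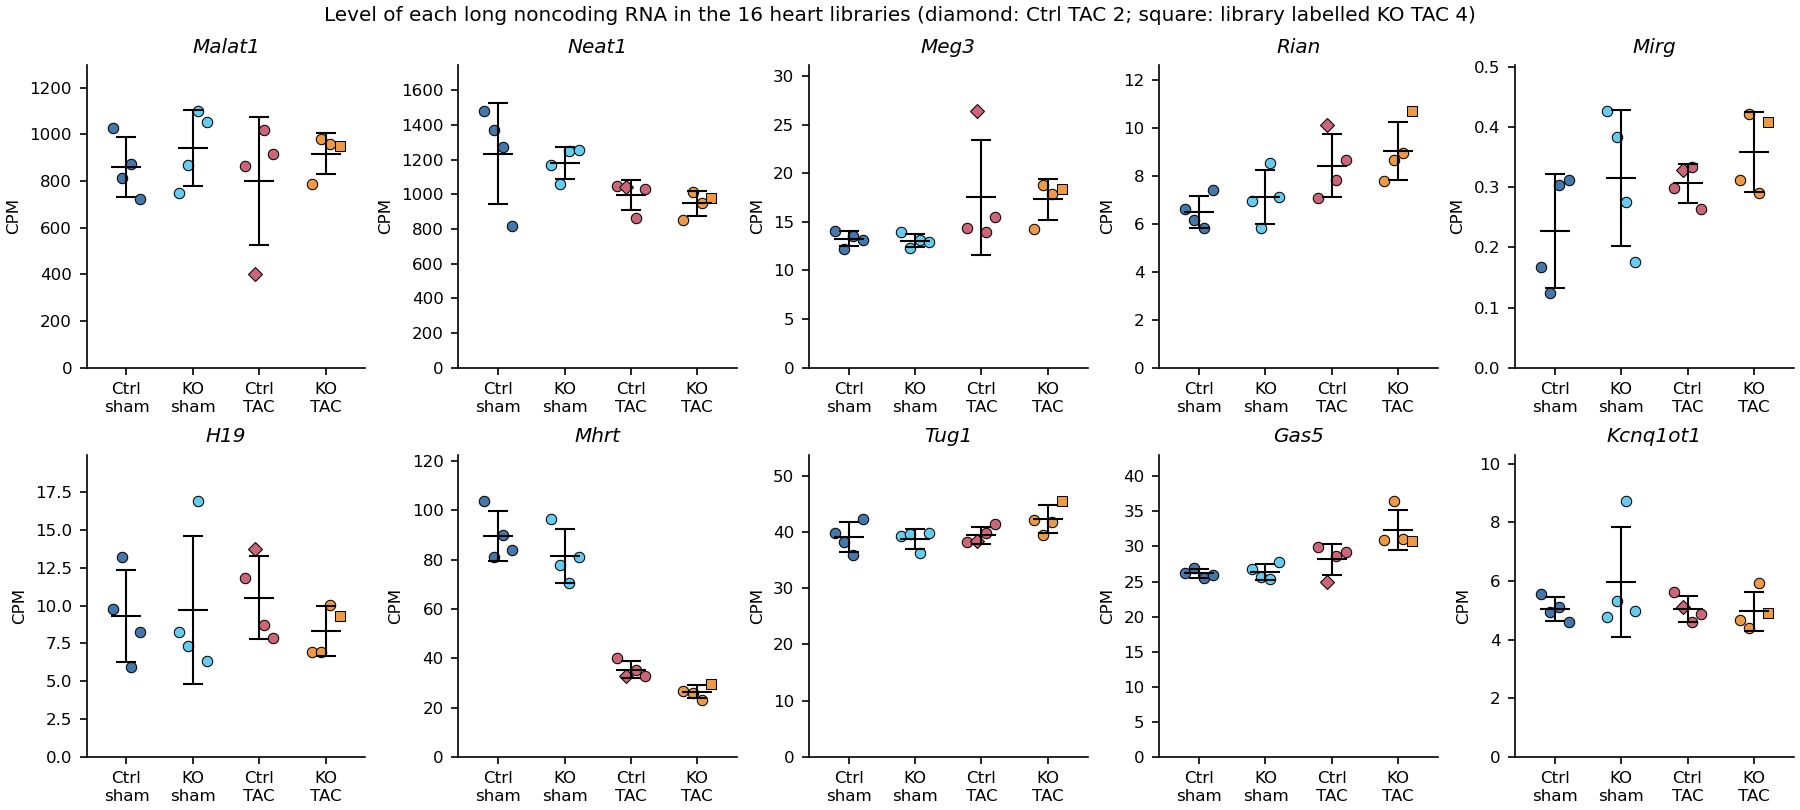
Level of each of the 10 lncRNAs in CPM (vertical axes, each from 0) in the 4 libraries of each group, with bars for mean ± SD, a diamond for Ctrl TAC 2 and a square for the library labelled KO TAC 4. Mhrt fell from 81.1 to 104.0 CPM in Ctrl sham to 32.6 to 40.1 in Ctrl TAC and from 70.5 to 96.5 in KO sham to 23.1 to 29.5 in KO TAC, while Tug1 stayed between 35.9 and 45.5 CPM in all 16 libraries.

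Mhrt had the largest log2 fold change of the 10 lncRNAs under pressure overload, and it fell in both genotypes. Of the 10 lncRNAs, 2 changed after TAC in Ctrl hearts (Mhrt fell and Rian rose), where 20.0% of all genes tested were called at an adjusted p under 0.05 by the edgeR quasi-likelihood test (10.4% higher and 9.6% lower). In KO hearts 3 changed (Mhrt fell, Rian and Gas5 rose) against 34.3% of all genes (17.8% higher and 16.5% lower), so these shares, 20% and 30%, were near the background. The median log2 fold change of the 10 was 0.06 in Ctrl and 0.04 in KO, beside 0.00 over all genes in each. Of 1758 tested genes of long noncoding types, 228 were called in Ctrl (13.0%, 77 higher and 151 lower) and 372 in KO (21.2%, 124 higher and 248 lower), with median log2 fold changes of -0.10 and -0.14. Mhrt had the smallest p of these 1758 genes in both genotypes, and it ranked 24 in Ctrl and 37 in KO among all 18275 genes.

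**Figure D2:**
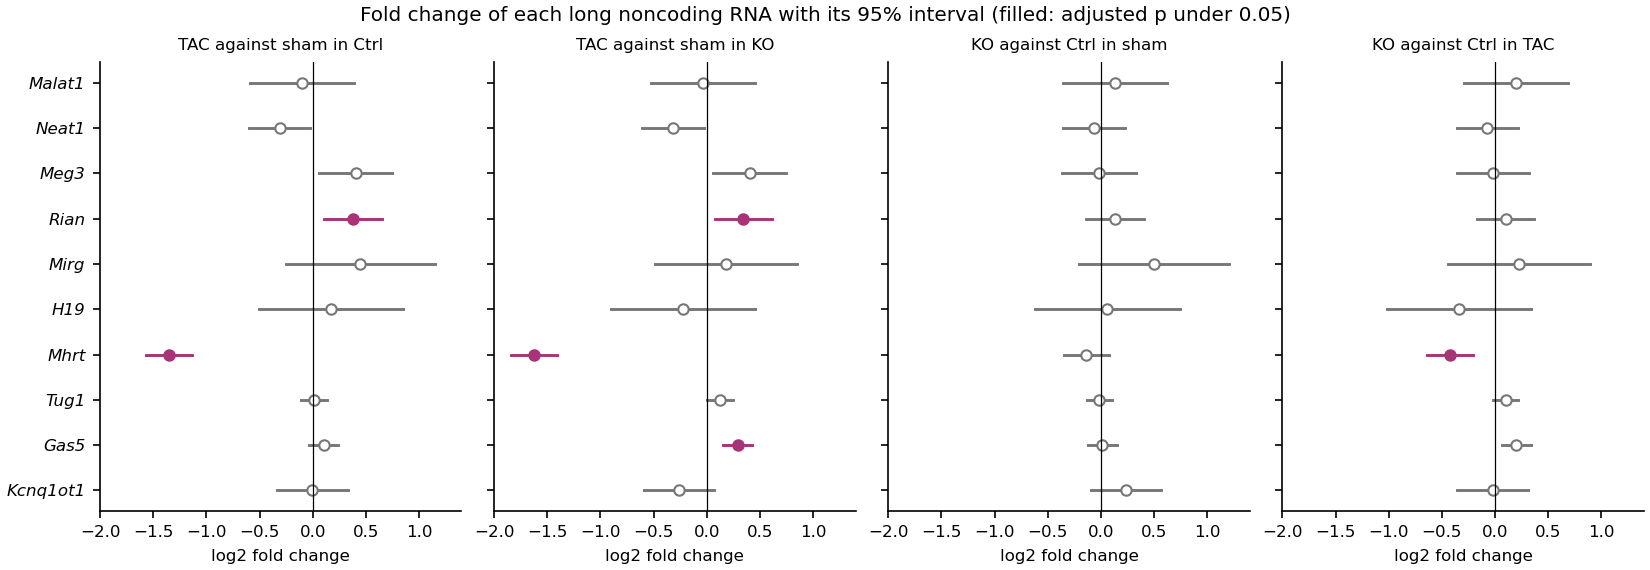
Log2 fold change (horizontal axes) of each lncRNA in the 4 comparisons of a pair of groups, with lines for 95% intervals and filled points for an adjusted p under 0.05. The points for Mhrt after TAC, at -1.35 in Ctrl and -1.63 in KO, lie farthest from 0, and in sham hearts no interval of KO against Ctrl leaves out 0.

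In Ctrl sham hearts Mhrt was at 104.0, 81.1, 89.9 and 83.9 CPM, and in Ctrl TAC hearts at 40.1, 32.6, 35.4 and 32.9 CPM. Every TAC heart lay below every sham heart. Mhrt fell by 1.35 on the log2 scale (SE 0.10, 95% interval -1.56 to -1.13, adjusted p = 2.23e-07 by edgeR), a change of -60.7%. In KO sham hearts it was at 96.5, 77.7, 70.5 and 81.2 CPM, and in KO TAC hearts at 26.7, 26.1, 23.1 and 29.5 CPM. The KO groups did not overlap either, and the fall was 1.63 on the log2 scale (SE 0.10, 95% interval -1.85 to -1.41, adjusted p = 8.94e-09). Both falls were also called in all 25 other settings tried at this threshold, which included leaving out each library in turn. In 20.5% of genes in Ctrl and 34.6% in KO, the TAC and sham groups did not overlap. Of the members, Mhrt was separated in this way in Ctrl, and Mhrt, Neat1, Meg3 and Gas5 were in KO.

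The genes next to Mhrt moved differently from each other. Myh7, which shares exon bases with Mhrt, rose from a mean of 1447 to 3253 CPM in Ctrl (log2 1.17, SE 0.21, adjusted p = 0.00116) and from 1444 to 3763 CPM in KO (log2 1.38, SE 0.21, adjusted p = 0.000143). Myh6, the gene of the fast α-myosin heavy chain of the adult mouse ventricle, fell by 0.30 on the log2 scale in Ctrl (adjusted p = 0.0126) and by 0.63 in KO (adjusted p = 7.84e-06). Mhrt counts therefore fell in the same hearts in which counts of its antisense partner rose.

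Against its neighbours, Mhrt fell most against Myh7. There were 62.4 ± 10.4 Mhrt counts per 1000 Myh7 counts in Ctrl sham and 12.2 ± 6.19 in Ctrl TAC, 5.49-fold lower by the means of the log2 ratios. In KO hearts the ratio fell 7.88-fold on the same scale, from 56.3 ± 4.34 to 7.37 ± 2.02 (each mean ± SD, n = 4). Per 1000 Myh6 counts, Mhrt went from 3.64 ± 0.119 to 1.77 ± 0.198 in Ctrl and from 3.43 ± 0.157 to 1.72 ± 0.199 in KO, 2.07-fold and 2.00-fold lower. None of these 4 pairs of groups overlapped, and each gave p = 0.0286 in an exact two-sided permutation test, the smallest that 70 relabellings allow, or 0.0571 adjusted over 8 comparisons.

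**Figure D3:**
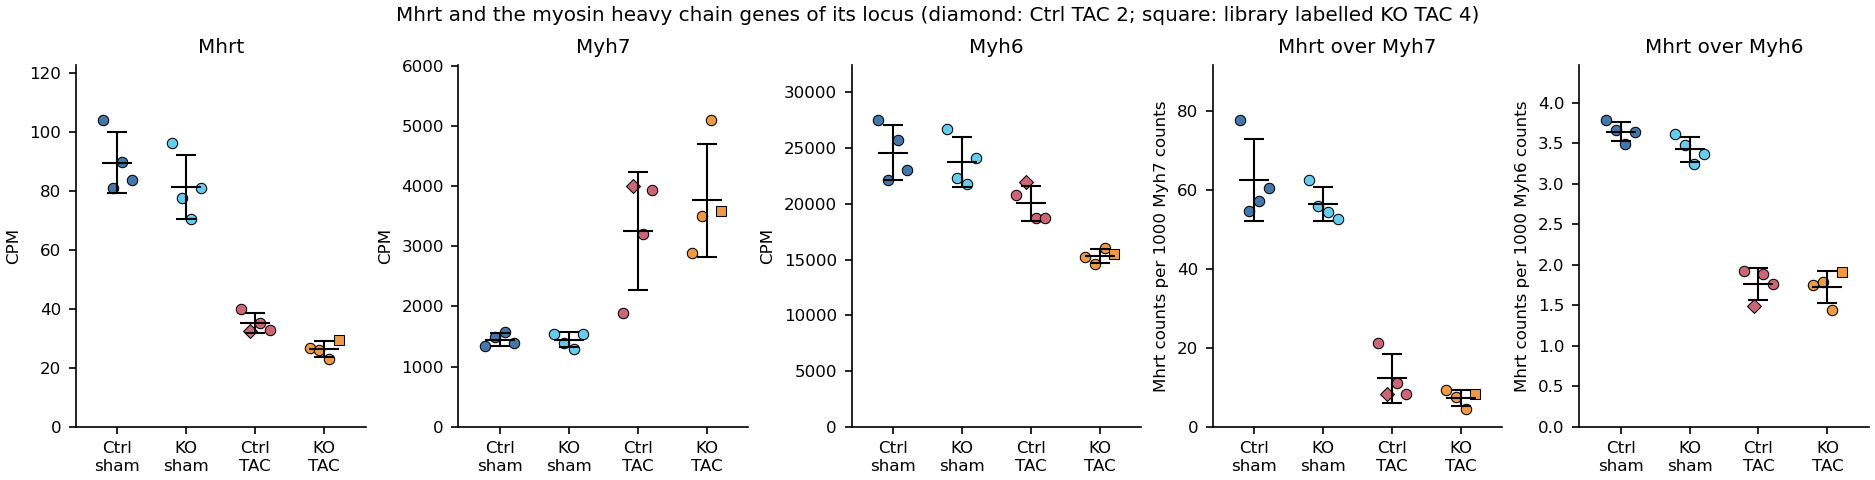
Mhrt, Myh7 and Myh6 in CPM and Mhrt counts per 1000 Myh7 or Myh6 counts (vertical axes, each from 0) in each library, with bars for mean ± SD, a diamond for Ctrl TAC 2 and a square for the library labelled KO TAC 4. After TAC, Mhrt and Myh6 were lower and Myh7 was higher, and the ratio of Mhrt to Myh6 was 1.77 in Ctrl TAC and 1.72 in KO TAC, where the libraries overlap.

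Under TAC, Mhrt was lower in KO than in Ctrl hearts. All 4 KO TAC values (23.1 to 29.5 CPM) lay below all 4 Ctrl TAC values (32.6 to 40.1 CPM), a fall of 0.42 on the log2 scale (SE 0.10, 95% interval -0.63 to -0.20, adjusted p = 0.0394), a change of -25.3%. It was the only member called in this comparison, where 2.68% of all genes were called (1.36% higher and 1.32% lower), and Mhrt and Gas5 were the members whose groups did not overlap, as in 10.5% of all genes. The fall was -0.48 (adjusted p = 0.0317) without the library labelled KO TAC 4, and -0.51 (adjusted p = 0.0611) without both that library and Ctrl TAC 2. The call was held in 8 of the 16 fits that left out 1 library, over which the log2 difference ranged from -0.48 to -0.35 and the adjusted p from 0.0258 to 0.123. It was lost without Ctrl sham 3, KO sham 2, Ctrl TAC 1, 2 or 3, or KO TAC 1, 2 or 3 (adjusted p from 0.0530 to 0.123). It was also lost with a term for the animal-number series (log2 -0.43, adjusted p = 0.133) and with no filter on low counts (adjusted p = 0.0756), while DESeq2 gave 0.00408.

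The animal numbers in the sample titles start with 25 in Ctrl TAC 2, 3 and 4 and the library labelled KO TAC 4. They start with 34 in the other TAC libraries, with 36, 32, 32 and 33 in Ctrl sham and with 33, 33, 33 and 34 in KO sham. The term for the series set numbers starting with 25 against those starting with 3. In Ctrl no series held both sham and TAC hearts, and in KO only that of 34 did. Surgery and series therefore cannot be fully told apart in the comparisons of TAC with sham. Under TAC, Ctrl TAC 2, 3 and 4 start with 25 and KO TAC 1 to 3 with 34. Genotype and series therefore cannot be fully told apart in KO against Ctrl under TAC either. What these series stand for is not given in the labels. In the series that starts with 34, Mhrt was at 40.1 CPM in Ctrl TAC 1 and at 23.1 to 26.7 CPM in KO TAC 1 to 3. In the series that starts with 25, it was at 32.6 to 35.4 CPM in Ctrl TAC 2 to 4 and at 29.5 CPM in the library labelled KO TAC 4. The libraries labelled KO were lower within both series, with 1 library on 1 side of each. In the series that starts with 25, the library labelled KO held Gm12295 at 4.55 CPM, within the range of the Ctrl libraries. That series therefore does not show a difference between genotypes. Cardiomyocyte markers were also lower in KO TAC: 2 of the 7 (28.6%, beside 2.68% of all genes called) fell. These were Myh6 (log2 -0.39, adjusted p = 0.0184) and Ryr2 (log2 -0.34, adjusted p = 0.0374). Of the 8 fibroblast markers, Postn rose (log2 1.21, adjusted p = 0.0102) and the other 7 did not pass, with a median of 0.36 over the list. When Ctrl TAC 2 was left out, Postn passed (adjusted p = 0.0319) and Myh6 and Ryr2 did not (0.0719 and 0.127), and the same held when both libraries that stand apart were left out (0.0291, 0.0913 and 0.125). With the term for the series, Postn, Myh6 and Ryr2 did not pass (adjusted p = 0.0848, 0.102 and 0.113 by edgeR). Against Myh6 the Mhrt ratio differed by -0.04 on the log2 scale between KO TAC and Ctrl TAC (exact permutation p = 0.657), and against Myh7 by -0.66 (exact permutation p = 0.171). The genotype by surgery interaction for Mhrt was -0.28 (95% interval -0.58 to 0.02, adjusted p = 0.484), so a larger fall in KO than in Ctrl hearts was not shown.

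Among the partners reported for Mhrt and its locus, Smarca4, which encodes BRG1, was at 63.3 CPM in Ctrl sham and 66.2 CPM in Ctrl TAC (log2 0.06, adjusted p = 0.49). Hdac2, a histone deacetylase, fell by 0.13 in Ctrl and 0.18 in KO on the log2 scale, and Parp1, a DNA damage sensor, by 0.28 and 0.37 (adjusted p = 0.0424, 0.00396, 0.000699 and 2.07e-05 by edgeR). Myh7b, a further myosin gene on another chromosome, averaged 120 CPM in Ctrl sham, 127 in KO sham and 116 in Ctrl TAC but 74.8 CPM in KO TAC, lower than in Ctrl TAC by 0.64 on the log2 scale (adjusted p = 0.0142, or 0.0166 when the library labelled KO TAC 4 was left out, 0.0529 when Ctrl TAC 2 was and 0.0449 when both were). With a term for the animal-number series this difference did not pass (adjusted p = 0.104 by edgeR). Of the 7 genes on this list, which holds Myh7 itself, 4 were called after TAC in Ctrl and 5 in KO. Only Myh7 rose, and the shares were 57.1% and 71.4% beside 20.0% and 34.3% of all genes. The list was chosen with earlier results of these data known, so these shares are a description and not a test of the partners.

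Gas5 (ENSMUSG00000053332, chr1:161034422-161038539, plus strand) rose after TAC in KO hearts. It was at 26.8, 25.6, 25.3 and 27.9 CPM in KO sham and at 30.9, 36.5, 31.1 and 30.8 CPM in KO TAC. All KO TAC hearts were above all KO sham hearts, and KO TAC 2 was highest. The rise was 0.29 on the log2 scale (SE 0.07, adjusted p = 0.00174), or 22.6%, and it was called in all 25 settings, at 0.23 (adjusted p = 0.00773) without KO TAC 2 and 0.32 (adjusted p = 0.00233) without the library labelled KO TAC 4.

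In Ctrl hearts Gas5 was at 26.2, 27.0, 25.5 and 25.9 CPM after sham surgery and at 29.9, 24.9, 28.6 and 29.2 CPM after TAC. Of the TAC hearts 3 lay above and 1, Ctrl TAC 2, below all sham hearts, and the difference of 0.11 (95% interval -0.03 to 0.24, adjusted p = 0.285) did not pass. Within TAC all hearts labelled KO lay above all Ctrl hearts, with a difference of 0.20 (SE 0.06, adjusted p = 0.0997) that passed in none of 25 settings. It was 0.15 (adjusted p = 0.306) without Ctrl TAC 2 and 0.22 (adjusted p = 0.103) without the library labelled KO TAC 4. Without both it was 0.17 (adjusted p = 0.260). The interaction was 0.19 (95% interval -0.01 to 0.38, adjusted p = 0.462). The response of Gas5 is therefore not shown to differ between genotypes.

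Of 15 other lncRNAs that host snoRNAs and could be tested, 2 rose in Ctrl and 2 rose and 1 fell in KO (13.3% and 20%, beside 20.0% and 34.3% of all genes), with medians of -0.02 and 0.09. Snhg18 rose in both genotypes, from 3.35 to 4.75 CPM in Ctrl (log2 0.50, adjusted p = 0.0172) and from 2.96 to 5.90 CPM in KO (log2 1.00, adjusted p = 2.94e-05). Snhg3 rose by 0.49 in Ctrl (adjusted p = 0.0072), was at 0.09 in KO (adjusted p = 0.612) and was lower in KO than in Ctrl under TAC by 0.47 (adjusted p = 0.044, or 0.0215 when the library labelled KO TAC 4 was left out, 0.173 when Ctrl TAC 2 was and 0.0670 when both were). With a term for the animal-number series the difference under TAC did not pass (adjusted p = 0.245 by edgeR). In KO hearts Snhg15 rose by 0.59 and Snhg20 fell by 0.27 (adjusted p = 0.0276 and 0.0292).

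Of the maternally expressed lncRNAs of the Dlk1-Dio3 locus, Rian rose in both genotypes by a small margin. Rian (ENSMUSG00000097451, chr12:109603940-109661716, plus strand) measured 6.61, 6.17, 5.81 and 7.39 CPM in Ctrl sham hearts and 7.06, 10.1, 7.83 and 8.66 CPM in Ctrl TAC hearts. The groups overlapped through Ctrl TAC 1, and the rise was 0.38 on the log2 scale (SE 0.13, adjusted p = 0.0467). In KO hearts it was at 6.97, 5.84, 8.56 and 7.10 CPM after sham surgery and at 7.80, 8.66, 8.96 and 10.7 CPM after TAC, again with 1 TAC heart inside the sham range, and the rise was 0.34 (SE 0.13, adjusted p = 0.0456). Each call was made in 11 of 25 other settings. In Ctrl it was lost (adjusted p from 0.0512 to 0.153) without Ctrl sham 1, 2 or 3, Ctrl TAC 2, 3 or 4, KO sham 1 or 4, or KO TAC 2 or 3, and in KO (adjusted p from 0.0504 to 0.166) without Ctrl sham 1 or 2, Ctrl TAC 3 or 4, KO sham 1, 2 or 4, or KO TAC 2, 3 or 4. Without Ctrl TAC 2 the rise in Ctrl was 0.28 (adjusted p = 0.153), without the library labelled KO TAC 4 the rise in KO was 0.25 (adjusted p = 0.166), and in fits that included the animal-number series the values were 0.12 (adjusted p = 0.673) and 0.25 (adjusted p = 0.105).

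Meg3 (ENSMUSG00000021268, chr12:109541001-109571726, plus strand) was higher in most TAC hearts without passing the test in the edgeR fit of all 16 libraries. It was at 14.1, 12.2, 13.5 and 13.1 CPM in Ctrl sham and at 14.3, 26.4, 13.9 and 15.5 CPM in Ctrl TAC. Ctrl TAC 2 was far above the other 3, and the difference of 0.41 (SE 0.16, adjusted p = 0.0916) became 0.14 (adjusted p = 0.297) without it. In KO hearts Meg3 was at 13.9, 12.3, 13.2 and 12.9 CPM after sham surgery and at 14.2, 18.8, 17.9 and 18.4 CPM after TAC. These groups did not overlap, and the difference was 0.41 (SE 0.16, adjusted p = 0.0639). It passed in 6 of 25 settings, among them the fit without Ctrl TAC 2, in which the value stayed at 0.41 and the adjusted p was 0.000787, and DESeq2 (adjusted p = 0.0321), which also passed Meg3 in Ctrl (adjusted p = 0.0465). Without Ctrl TAC 3 it passed in both genotypes (adjusted p = 0.0410 and 0.0487), and without KO TAC 1 in KO (adjusted p = 0.0358). Without both Ctrl TAC 2 and the library labelled KO TAC 4, the difference in KO was 0.38 (adjusted p = 0.0036 by edgeR).

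Mirg (ENSMUSG00000097391, chr12:109729764-109749460, plus strand) was at 0.125 to 0.313 CPM in Ctrl sham and 0.265 to 0.334 CPM in Ctrl TAC, with intervals that span -0.25 to 1.15 for TAC in Ctrl and -0.49 to 0.85 in KO. Within groups, Meg3 and Rian tended to be high in the same hearts: over 16 libraries the deviations from group means correlated with Pearson r = 0.62 (permutation p = 0.0154, adjusted over 3 pairs 0.0463) and Spearman rho = 0.53 (permutation p = 0.0535, adjusted 0.160). Without the 2 hearts farthest from the median of Meg3, Ctrl TAC 2 and Ctrl TAC 3, r was 0.50 and rho 0.46 (permutation p = 0.109 and 0.137, n = 14), so the relation did not pass without them. Mirg did not pass against Meg3 (r = 0.19, rho = 0.27, permutation p = 0.201 and 0.204) or Rian (r = 0.01, rho = -0.11, permutation p = 0.974 and 0.708).

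Of the other genes of the Dlk1-Dio3 region, 9 of 10 were tested, and 1 rose in Ctrl and 3 in KO (11.1% and 33.3%, beside 20.0% and 34.3% of all genes), with none that fell and medians of 0.02 and 0.13. Begain, at the edge of the locus, rose from 0.419 to 0.889 CPM in Ctrl (log2 1.08, adjusted p = 0.0151) and from 0.449 to 0.798 CPM in KO (log2 0.83, adjusted p = 0.039). In KO hearts Dio3, the gene of the deiodinase that inactivates thyroid hormone, rose from 0.124 to 0.368 CPM (log2 1.56, adjusted p = 0.0347), and the antisense Dio3os from 0.368 to 0.875 CPM (log2 1.24, adjusted p = 0.037). Reads of Dio3 and Dio3os cannot be told apart where the genes overlap if counting ignored strand. Rtl1, a paternally expressed retrotransposon-derived gene, averaged 0.122 to 0.169 CPM in the 4 groups and did not pass, and Dlk1, at 0.0153 to 0.162 CPM, was too low to test.

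The hosts carry microRNAs that these libraries did not measure. By RefSeq positions, Meg3 spanned 2 microRNA genes with 3 mature microRNAs, Rian 3 with 6, Mirg 14 with 26 and H19 1 with 2. The 37 mature sequences had 36 different seeds (bases 2 to 8), and the only seed that occurred in 2 of them was GGUUGCC, in a pair within Mirg. From each of the 3 microRNA genes of Rian, whose rise did not pass in all settings, 1 of its 2 arms is shown, together with both arms carried by H19 and the pair with a common seed, with the seed in capitals.
mmu-miR-341-3p (Rian): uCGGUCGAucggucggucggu
mmu-miR-1188-5p (Rian): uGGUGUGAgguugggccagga
mmu-miR-370-3p (Rian): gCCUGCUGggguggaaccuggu
mmu-miR-675-5p (H19): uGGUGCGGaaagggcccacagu
mmu-miR-675-3p (H19): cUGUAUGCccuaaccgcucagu
mmu-miR-453 (Mirg): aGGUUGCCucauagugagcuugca
mmu-miR-496a-5p (Mirg): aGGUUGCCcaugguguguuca

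Neat1 (ENSMUSG00000092274, chr19:5824708-5845478, minus strand) was lower on average in TAC hearts of both genotypes, and neither difference passed. In Ctrl sham it was at 1479, 1374, 1273 and 815 CPM, and in Ctrl TAC at 1046, 1043, 864 and 1030 CPM. Ctrl sham 4 lay below all TAC hearts and the other 3 sham hearts above them. The difference was -0.31 (95% interval -0.60 to -0.02, adjusted p = 0.127), and -0.47 (adjusted p = 0.000813) without Ctrl sham 4. In KO hearts Neat1 was at 1169, 1059, 1251 and 1253 CPM after sham surgery and 851, 1015, 948 and 978 CPM after TAC. These groups did not overlap, with a difference of -0.32 (95% interval -0.61 to -0.03, adjusted p = 0.0832), and it passed in 4 of 25 settings, among them DESeq2 (adjusted p = 0.0403) and the fit without Ctrl sham 4 (adjusted p = 0.00374).

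Paraspeckles are built from Neat1 and a set of RNA-binding proteins. Of 21 tested genes of paraspeckle proteins, 4 fell after TAC in Ctrl and 7 fell and 1 rose in KO (19% and 38.1%, near the 20.0% and 34.3% of all genes), with medians of -0.07 and -0.09. Zc3h6, a zinc finger gene, fell from 7.01 to 3.31 CPM in Ctrl (log2 -1.09, adjusted p = 0.000895) and from 5.14 to 3.38 CPM in KO (log2 -0.61, adjusted p = 0.0265). Matr3, of the nuclear matrix, fell by 0.23 in Ctrl (adjusted p = 0.000655) and 0.19 in KO (adjusted p = 0.00174). Cpsf6, a subunit of the cleavage factor of polyadenylation, fell by 0.21 in Ctrl (adjusted p = 0.00185). In KO hearts the RNA-binding protein genes Hnrnph3 and Rbm14 fell by 0.33 and 0.28 (adjusted p = 0.000356 and 0.0296), and Nono, a core paraspeckle protein, rose by 0.11 (adjusted p = 0.0342).

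Malat1 (ENSMUSG00000092341, chr19:5795690-5802672, minus strand), the highest of the 10 per kb, did not pass in any comparison or setting. It was at 1029, 811, 873 and 724 CPM in Ctrl sham and at 863, 403, 1020 and 915 CPM in Ctrl TAC. Only Ctrl TAC 2 lay below the sham hearts, and the difference was -0.10 (95% interval -0.59 to 0.39, adjusted p = 0.809), or 0.12 (adjusted p = 0.603) without that library. In KO hearts it was at 749, 868, 1099 and 1053 CPM after sham surgery and 786, 979, 957 and 950 CPM after TAC, with a difference of -0.04 (95% interval -0.53 to 0.45, adjusted p = 0.923). The intervals leave room for changes of more than 0.3 in either direction. A list of 23 transcripts that mostly lack poly(A) tails, such as histone mRNAs, summed to 132 to 150 CPM in Ctrl sham, 143 to 166 in KO sham, 157 to 188 in Ctrl TAC and 153 to 170 in KO TAC. Of 17 tested, 3 were called after TAC in Ctrl and 2 in KO (17.6% and 11.8%, beside 20.0% and 34.3% of all genes). The linker histone gene Hist1h1c rose in both genotypes (log2 0.31 and 0.38, adjusted p = 0.00225 and 0.000184). Hist1h1e and Hist2h3c2 rose in Ctrl (log2 0.85 and 0.75), and Hist2h4 fell in KO (log2 -1.13). The summed level was higher in Ctrl TAC than in Ctrl sham, and its part in the values of Malat1 and Neat1 was not tested.

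Of 26 genes of nuclear speckle proteins, the compartment of Malat1, 6 fell after TAC in Ctrl and 5 in KO, and none rose. The scaffold genes Srrm1 and Srrm2 both fell by 0.30 in Ctrl (adjusted p = 0.00336 and 0.0013), and by 0.30 and 0.28 in KO (adjusted p = 0.00175 and 0.000949). In Ctrl the kinase gene Clk1, which acts on splicing factors, fell by 0.24 (adjusted p = 0.0267). Son, a further scaffold, fell by 0.22 and 0.24 (adjusted p = 0.0285 and 0.00952). The medians over the list were -0.09 and -0.07, and the shares called, 23.1% and 19.2%, stood beside 20.0% and 34.3% of all genes.

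H19 (ENSMUSG00000000031, chr7:142575529-142578143, minus strand), which is abundant in the fetus and shut down after birth, varied too much between hearts for a change to be seen. It was at 9.80, 13.2, 5.95 and 8.23 CPM in Ctrl sham and 11.8, 13.8, 8.68 and 7.83 CPM in Ctrl TAC. In KO hearts it was at 8.28, 7.31, 16.9 and 6.34 CPM after sham surgery and 6.92, 6.93, 10.1 and 9.33 CPM after TAC. All groups overlapped, and the intervals were -0.50 to 0.85 for TAC in Ctrl and -0.90 to 0.46 in KO. Its neighbour Igf2, a fetal growth factor, averaged 8.90 CPM after sham surgery and 9.02 after TAC in Ctrl, and 8.44 and 6.54 CPM in KO, and did not pass (log2 -0.37, adjusted p = 0.062 for TAC in KO). Of 6 tested genes near H19, 3 were called in Ctrl and 2 in KO (50% and 33.3%, beside 20.0% and 34.3% of all genes). The share in KO was thus near the background. Lsp1, a leukocyte actin-binding protein, rose in both genotypes (log2 0.33 and 0.42, adjusted p = 0.015 and 0.0015). Mrpl23, a mitochondrial ribosomal protein, fell in both (log2 -0.25 and -0.43), and Tnnt3, the fast skeletal troponin T, rose from 0.268 to 0.775 CPM in Ctrl (adjusted p = 0.0098).

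Kcnq1ot1 (ENSMUSG00000101609, chr7:143203458-143296549, minus strand) was between 4.40 and 5.92 CPM in all libraries but KO sham 3, at 8.75 CPM. Its mean was 5.05 CPM in both Ctrl sham and Ctrl TAC, a difference of -0.00 (95% interval -0.33 to 0.33). In KO hearts the difference was -0.26 (95% interval -0.59 to 0.07, adjusted p = 0.219), and it shrank to -0.02 (adjusted p = 0.933) without KO sham 3. Kcnq1, the potassium channel gene that contains it, averaged 34.9 CPM after sham surgery and 33.3 after TAC in Ctrl, and 32.1 and 31.5 CPM in KO. Of 9 tested genes of this domain none was called in Ctrl and 3 were in KO (0% and 33.3%, beside 20.0% and 34.3% of all genes). The share in KO was thus near the background. In KO Cdkn1c, a cell cycle inhibitor repressed in cis by Kcnq1ot1, fell by 0.39 on the log2 scale (adjusted p = 0.00269). Nap1l4, a nucleosome assembly factor, fell by 0.17 in KO, and Osbpl5, a lipid transfer protein, rose by 0.24.

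Tug1 (ENSMUSG00000056579, chr11:3639785-3649673, minus strand) varied least of the 10 over all 16 libraries, by the ratio of its highest to its lowest value. It was at 39.8, 38.2, 35.9 and 42.3 CPM in Ctrl sham and 38.1, 38.3, 39.8 and 41.4 CPM in Ctrl TAC, a difference of 0.01 with a 95% interval of -0.11 to 0.13. In KO hearts it was at 39.2, 39.6, 36.2 and 39.9 CPM after sham surgery and 42.1, 39.4, 41.8 and 45.5 CPM after TAC. Of the KO TAC hearts 3 lay above all KO sham hearts, and the difference of 0.13 (95% interval 0.01 to 0.25, adjusted p = 0.0998) did not pass in any setting. The highest of the 16 values was 1.27 times the lowest, against 4.49 times for Mhrt. Of its exon bases, 483 are shared with Morc2a on the opposite strand.

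Imprinted genes outside these loci were also counted. Of 27 tested, 3 rose and 8 fell after TAC in Ctrl, and 6 rose and 11 fell in KO, which is 40.7% and 63.0% beside 20.0% and 34.3% of all genes. The falls in both genotypes included Asb4 (log2 -0.63 and -0.85), Snrpn, a splicing protein gene (log2 -0.50 and -0.44), and Ppp1r9a, a neuronal scaffold gene (log2 -0.49 and -0.54). In KO, Nap1l5 and Zim1 fell as well (log2 -0.73 and -0.62). Grb10, an adaptor of insulin signalling, rose in both (log2 0.43 and 0.26), as did the amino acid transporter Slc38a4 (log2 0.43 and 0.57) and Sgce, a sarcoglycan (log2 0.21 and 0.28). In KO, Mest (log2 0.67) and Dcn, a fibroblast proteoglycan (log2 0.60), rose, and under TAC Trappc9 was lower in KO than in Ctrl by 0.26 (adjusted p = 0.0374), a call that was lost when the library labelled KO TAC 4 (0.0724), Ctrl TAC 2 (0.130) or both (0.201) were left out. With a term for the animal-number series Trappc9 did not pass either (adjusted p = 0.146 by edgeR). The median over the list was -0.10 in Ctrl and -0.16 in KO.

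Of 25 further named lncRNAs that could be tested, 2 rose and 3 fell in Ctrl and 5 rose and 2 fell in KO, which is 20% and 28% and near the background. Dnm3os, the host of a microRNA cluster of connective tissue, rose from 3.10 to 4.63 CPM in Ctrl (log2 0.58, adjusted p = 0.03) and from 2.81 to 5.05 CPM in KO (log2 0.85, adjusted p = 0.0013). Halr1, of the HoxA cluster, rose by 0.92 and 1.11 (adjusted p = 0.026 and 0.0041). Mir155hg, the host of an immune microRNA, fell from 0.484 to 0.125 CPM in Ctrl (log2 -1.91, adjusted p = 0.0083), and Firre, an X-linked nuclear lncRNA, fell by 0.29 (adjusted p = 0.019). Pvt1, beside Myc, rose by 0.73 in KO (adjusted p = 0.025), where Ftx, of the X inactivation centre, fell by 0.43 (adjusted p = 0.025). 2900097C17Rik fell by 0.21 in Ctrl and 0.26 in KO. The fibroblast markers also rose, 4 of 8 in Ctrl and 7 of 8 in KO (50% and 87.5%, beside 20.0% and 34.3% of all genes called). Their part in these changes was not tested.

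In sham hearts no difference between genotypes was detectable in the 10 lncRNAs. None of the 10 was called, and the groups overlapped for all 10, while they did not overlap for 1.78% of all genes. Of all genes, 0.0% were called: edgeR called 0, with 479 at an unadjusted p under 0.05, and DESeq2 called 3. The fit of all 16 libraries did not call even the deleted Gm12295 (log2 -2.92, SE 0.82, adjusted p = 1.00), which was called without the library labelled KO TAC 4 (log2 -2.92, adjusted p = 0.00258). The median difference of the 10 was 0.04, beside -0.00 over all genes. Intervals were narrow for Tug1 (-0.13 to 0.11) and Gas5 (-0.13 to 0.15), and wide for Mirg (-0.21 to 1.20) and H19 (-0.62 to 0.74). That of Mhrt (-0.35 to 0.07) leaves room for a lower level in KO sham hearts. Under TAC the other members than Mhrt and Gas5 overlapped between genotypes, with intervals of -0.36 to 0.22 for Neat1, -0.36 to 0.32 for Meg3, -0.17 to 0.37 for Rian and -0.29 to 0.69 for Malat1. No member passed the genotype by surgery interaction, for which 0.0109% of all genes were called.

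Genes with the most similar course over individual hearts were listed as a description, by Pearson r of deviations from group means over 16 libraries, which share their depth and tissue make-up. For Mhrt these were Pfdn2 (r = 0.84), Acy1 (0.83) and Rad23b (0.82), and for Gas5 Ift27 (0.90), Cetn3 (0.89) and the lncRNA Mir99ahg (0.87). Malat1 was closest to Actr10 (0.93) and to the mitochondrial tRNA genes mt-Tt and mt-Ts1 (both 0.90). Neat1 was closest to Trp53bp2 (0.91), Cenpc1 (0.90) and Tubgcp5 (0.89), and Rian to Jmjd8 (0.83), Gpat4 (0.82) and Wdr82 (0.82). Mib2 (0.85) and Polg (0.83) were among the 3 closest to Meg3. For Mirg they were Ccdc137 (0.86), Ostm1 (0.86) and Nudt5 (0.84), for H19 Arhgef19 (0.91), Lrrc14 (0.88) and Ice1 (0.87), for Tug1 Rmdn2 (0.89), Qser1 (0.87) and Frs2 (0.83), and for Kcnq1ot1 Ddx17 (0.90), Stk38 (0.88) and Synpo2 (0.88).

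**Figure D4:**
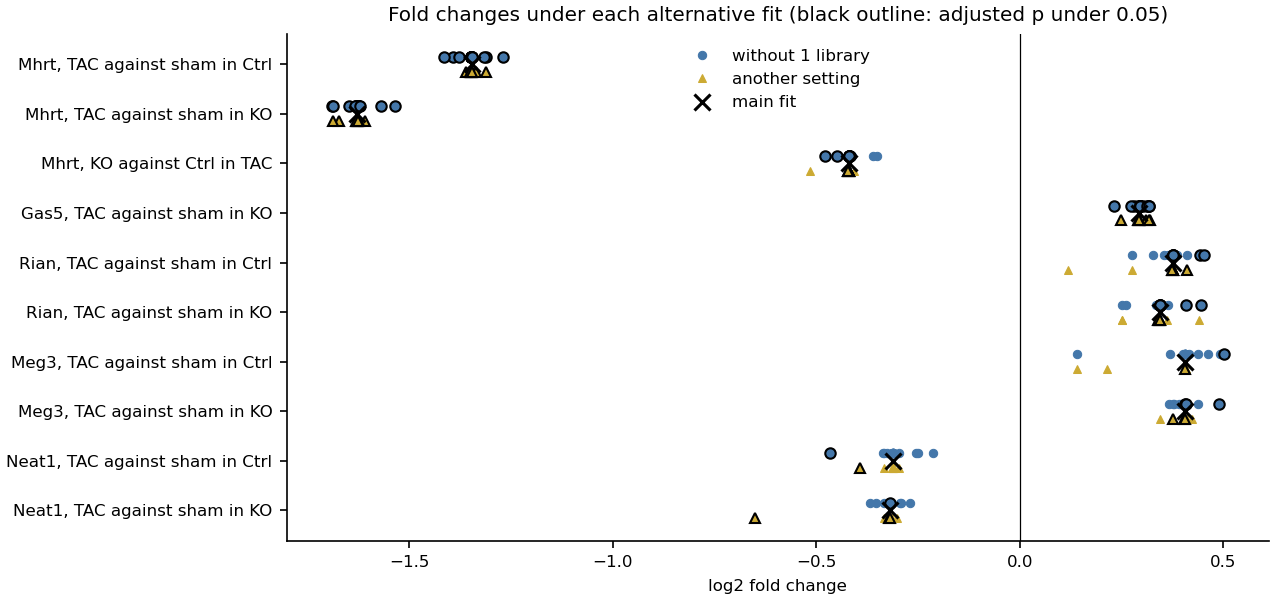
Log2 fold changes (horizontal axis) of Mhrt, Gas5, Rian, Meg3 and Neat1 in the comparisons named on the left, for the fit as reported (cross), fits without 1 library (circles) and other settings (triangles), with a black outline where the adjusted p was under 0.05. Mhrt after TAC and Gas5 after TAC in KO are outlined throughout, and Meg3 in Ctrl spans 0.14 to 0.50.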

How the data were processed

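Poly(A)-selected RNA of 16 mouse hearts, 4 per group, was sequenced as paired 150-base reads. The submitters' processing notes name cutadapt 2.3, FastQC, HISAT2 2.1.0, edgeR 3.26.1 and GRCm38. The counting program, its annotation and its use of strand are not given in the sources used here. The authors deposited 1 table of raw counts per Ensembl gene, whole numbers without normalization, with 1 column per mouse. Columns were matched to samples by animal number, and 0 were left unmatched. Replicates were numbered in sample order.

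Symbols and positions came from GENCODE M21, which held 55227 identifiers (99.5%), and the others carried 0.00355% of counts. Genes were filtered with filterByExpr and scaled by TMM in edgeR 4.0.16 (R 4.3.3), and CPM refer to the scaled library totals. A single quasi-likelihood model with 1 mean per group was fitted to 16 libraries (robust glmQLFit) without covariates, as the labels give no batch, and 5 contrasts were tested with glmQLFTest. P-values were Benjamini-Hochberg adjusted over 18275 genes and called under 0.05. Standard errors were the absolute log2 fold change over the square root of F, and 95% intervals used the t quantile of the fit. Library totals of over 53169437 counts gave 8 to 106252 counts per member and library. The script was tested on simulated data.

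Ratios of Mhrt to Myh7 and Myh6 were log2 ratios of the counts (as an alternative with 0.5 added to both), compared by exact two-sided permutation tests (SciPy 1.17.1). Correlations of log2 CPM (prior count 2) used 100000 permutations.

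The members, gene lists, motifs and tests were chosen with earlier results of these data known. Named genes were all 10 members, per list and contrast the called genes up to the 3 largest rises and falls, fixed neighbours at the members' loci, and per member the 3 genes of highest r among genes whose log2 CPM averaged 2 or more (for Meg3, 1 of them is not reported here). Genes named outside this rule, such as Son, Smarca4, Ryr2 and Postn, were chosen after their values were seen. Alternatives were RLE size factors, DESeq2 1.42.0, an adjusted p under 0.01, a filter of 10 counts in each library or no filter beyond 1 count, library sizes without mitochondrial genes, terms for the animal-number series or for numbers starting with 33, fits to the 8 libraries of a comparison, and leaving out each library or Ctrl TAC 2 and KO TAC 4 together. Sequences came from RefSeq (GRCm38.p6) and GENCODE M21.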

Additional observations from a re-analysis of the deposited data

Results flagged for a closer look

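Among 40 groups of 4 values (10 lncRNAs in 4 groups), 4 held a library whose distance from its nearest neighbour took up more of the group's range than Dixon's 95% critical value allows, where chance flags about 1 in 20 groups. Meg3 was at 26.4 CPM in Ctrl TAC 2, against 13.9 to 15.5 in the other Ctrl TAC hearts. Gas5 was at 36.5 CPM in KO TAC 2, against 30.8 to 31.1 in the other KO TAC hearts. Malat1 was lowest in KO TAC 1, at 786 CPM against 950 to 979 in the others. Neat1 was lowest in Ctrl TAC 3, at 864 CPM against 1030 to 1046 in the others. Malat1 in Ctrl TAC 2 (403 CPM against 863 to 1020) was the lowest of all 16 Malat1 values and did not reach the critical value. The causes were not tested.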

How the results depend on the processing

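No paired analysis was possible because the animal numbers are not shared between groups and the replicate numbers only follow sample order. The falls of Mhrt after TAC in both genotypes and the rise of Gas5 in KO passed in every setting run at an adjusted p under 0.05, and the ratios of Mhrt to Myh7 and Myh6 kept their direction in the settings run. The other calls did not hold throughout, and the causes were not tested. For TAC in Ctrl, 1 lncRNA of the 10 was called (in place of 2) at an adjusted p under 0.01, which also left 2076 genes, and with no filter, the animal-number series as a term, Ctrl TAC 2 and KO TAC 4 left out, or a fit to 8 libraries. For TAC in KO, 5 (in place of 3) were called by DESeq2 and in a fit to 8 libraries, and 2, without Rian, at an adjusted p under 0.01, with no filter and with the series term. With the term for numbers starting with 33, Rian was lost (adjusted p = 0.0664) and Neat1 was called (adjusted p = 0.0024). For KO against Ctrl in TAC, 0 (in place of 1) were called at an adjusted p under 0.01, with no filter, with the series term and without Ctrl TAC 2 and KO TAC 4. There the 489 genes called became 19 at an adjusted p under 0.01, 1183 by DESeq2, 285 with no filter, 12 with the series term, 109 without both libraries and 154 in a fit to 8 libraries. In sham hearts, KO against Ctrl gave 3 genes by DESeq2, 1 without both libraries and 2 in a fit to 8 libraries. The interaction gave 132 genes by DESeq2, 1 with no filter and 0 at an adjusted p under 0.01, with either animal-number term and without both libraries.

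Over fits without 1 library, the number of members called was 1 to 3 for TAC in Ctrl and 0 to 1 for KO in TAC, and the genes called were 0 to 2 for KO in sham (2 without Ctrl sham 3, 1 without Ctrl TAC 4 or KO TAC 4), 63 to 733 for KO in TAC and 0 to 18 for the interaction (18 without Ctrl TAC 4). For KO in TAC, 63 genes were called without Ctrl TAC 2, 84 without KO TAC 3, 152 without KO TAC 2, 190 without Ctrl TAC 3, 258 without KO TAC 1 and 324 without KO sham 2. The relation of Meg3 and Rian had r = 0.50 without the 2 libraries farthest from the median.

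Reversals of sign were among differences that did not pass. With the series term, TAC in Ctrl was -0.068 for Tug1 and 0.086 for Kcnq1ot1, Meg3 was 0.11 in KO against Ctrl TAC, and the interaction was 0.13 for Meg3 and 0.13 for Rian. With the term for numbers starting with 33, Kcnq1ot1 was 0.015 for TAC in Ctrl, Neat1 and H19 were 0.19 and -0.10 for KO in sham, and the interaction was -0.073 for Malat1, 0.0023 for Meg3, 0.029 for Rian and 0.18 for Mirg. Without Ctrl TAC 2 and KO TAC 4, Malat1 was 0.12 for TAC in Ctrl, -0.040 for KO in TAC and -0.17 for the interaction, and Meg3 was 0.22 and 0.23 for the latter pair. With no filter the interaction was 0.0099 for Neat1 and 0.017 for Meg3.

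Over fits without 1 library, the log2 differences that crossed 0 ranged as follows. For TAC in Ctrl, Kcnq1ot1 ranged from -0.058 to 0.046, Tug1 from -0.027 to 0.052 and Malat1 from -0.24 to 0.12. For TAC in KO, Malat1 ranged from -0.13 to 0.044, H19 from -0.38 to 0.19 and Mirg from -0.017 to 0.36. For KO in sham, Neat1 ranged from -0.22 to 0.036, Meg3 from -0.054 to 0.014, H19 from -0.35 to 0.28, Tug1 from -0.052 to 0.027, Kcnq1ot1 from -0.0092 to 0.33 and Gas5 from -0.015 to 0.032. For KO in TAC, Kcnq1ot1 ranged from -0.12 to 0.033, Malat1 from -0.023 to 0.34 and Meg3 from -0.11 to 0.25. For the interaction, Malat1 ranged from -0.16 to 0.21, Meg3 from -0.094 to 0.26, Rian from -0.13 to 0.069, Neat1 from -0.11 to 0.15 and H19 from -0.62 to 0.010.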

Other observations

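Among the 45 pairs of members, 2 relations of deviations from group means over 16 libraries are given as descriptions, picked after their values were seen. H19 and Kcnq1ot1, from different imprinted domains of chromosome 7, had the highest r (0.73), and KO sham 3 held the highest value of each (16.9 and 8.75 CPM). Malat1 and Meg3 had the lowest r (-0.66), and Ctrl TAC 2 held the lowest Malat1 and the highest Meg3 value (403 and 26.4 CPM).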
